A study of Homo sapiens with 6 samples.

Results

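The 36 genes described here encode the sterol regulatory element-binding proteins (SREBPs), their regulators and the enzymes of cholesterol and fatty acid synthesis. They were taken by symbol from the deposited table, and all 36 were found among its 12499 genes. They fall into 6 genes of the SREBP system itself, 18 genes of cholesterol synthesis and 12 genes of fatty acid synthesis and handling. The data are RNA-seq libraries of HaCaT cells, an immortalized human keratinocyte line, with 3 libraries per group. One group was infected with a control lentivirus (LV-NC) and the other with a lentivirus carrying the *ATF7* coding sequence in a pLVX-IRES-Puro vector (LV-*ATF7*). Both groups were infected for 48 hours and then kept in high glucose for 24 hours, so no library shows the genes in normal glucose. The promoter driving *ATF7* is not given in the sources used here, and nothing says whether the 3 libraries of a group came from separate cultures, so p-values measure the spread between these libraries, which may be technical.

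SREBPs are made as precursors held in the membrane of the endoplasmic reticulum. When sterols are low, the escort protein SCAP carries them to the Golgi apparatus, where they are cut, and the released domain enters the nucleus and turns on lipid genes. When sterols are high, INSIG proteins hold SCAP back. SREBP-2, from *SREBF2*, acts mainly on cholesterol synthesis and uptake, whereas SREBP-1, from *SREBF1*, acts mainly on fatty acid synthesis. In the epidermis, keratinocytes use both pathways to make the lipids of the permeability barrier.

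In the libraries labeled LV-*ATF7*, most fatty acid genes and both SREBP genes were higher, while the cholesterol pathway was mixed. *FADS1* was 8.69-fold higher, *FASN* 6.43-fold, *SCD* 5.98-fold and *SREBF1* 5.64-fold (edgeR, 3 libraries per group, with the error, SE for standard error, and p of each gene below). Of the 36 genes, 20 were higher and 6 lower at an adjusted p under 0.05, and 10 did not pass. This has to be read against all 12462 genes tested, of which 67.6% passed, 34.7% higher and 32.9% lower. The share of the 36 that passed, 72.2%, was near that of all genes, and the split between higher and lower was less even than the split over all genes. The median log2 fold change was 0.68 over the 36 genes and 0.000162 over all genes. Where the change also had to reach 1.5-fold, 18 were higher and 4 lower, beside 52.9% of all genes in either direction. The libraries of the 2 groups did not overlap for 29 of the 36 genes, 23 with every labeled LV-*ATF7* library above and 6 with every one below, beside 72.7% of all genes.

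**Figure D1:**
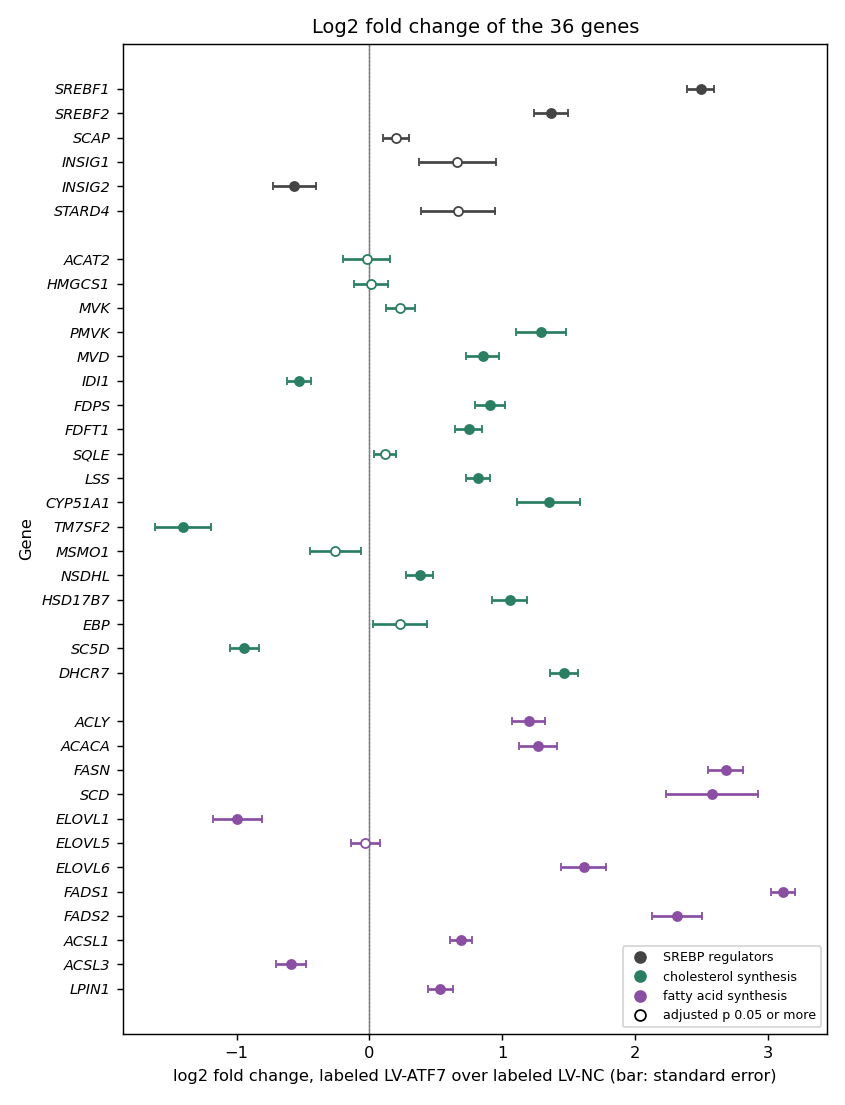
Log2 fold change of each of the 36 genes, labeled LV-*ATF7* over labeled LV-NC, from edgeR (x axis), with bars of 1 standard error and 3 libraries per group; genes are grouped by role and listed in pathway order, and open circles did not pass an adjusted p of 0.05. All genes above 2 except *SREBF1* are fatty acid genes, and the cholesterol genes lie on both sides of 0.

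Some facts of the whole series bear on these values. Total counts ran from 16686472 to 20562768 per library. The overexpressed gene goes against its label: *ATF7* was at 50.6, 46.4 and 52.2 CPM in the LV-NC libraries and 21.9, 25.7 and 27.98 CPM in the labeled LV-*ATF7* libraries (log2 fold change -0.98 ± 0.12 SE, adjusted p = 1.89e-04, edgeR). Of its exon bases, 43.8% also lie in exons of other genes. The study also assayed *ATF7* in such cells by qRT-PCR and Western blotting, which are not analyzed here. The groups are named by their labels, and each direction below rests on those labels. LV-NC replicate 1 stood apart from its group, with a correlation across genes of 0.967 and 0.969 with replicates 2 and 3, which correlated at 0.994. With the labeled LV-*ATF7* libraries, replicate 1 correlated at 0.856 to 0.862, and replicates 2 and 3 at 0.838 to 0.843. All 14 keratinocyte markers listed were tested, with a summed level of 2399 to 3152 CPM in LV-NC and 7651 to 8388 CPM in LV-*ATF7*. The largest part of the LV-*ATF7* sum was *KRT5*, a keratin of basal keratinocytes, with means of 266 CPM in LV-NC and 3354 CPM in LV-*ATF7*. *KRT14*, also a basal keratin, was at only 8.06 ± 6.69 and 1.55 ± 0.240 CPM in LV-NC and LV-*ATF7* (SD, n = 3). Its groups overlap, with 0.375, 12.5 and 11.3 CPM in the LV-NC libraries. The log2 fold changes of *KRT5*, *TP63* and *KRT14* were 3.65, 3.90 and -2.37 (edgeR). Among the 14, 8 were higher, 3 lower and 3 did not pass, or 78.6% passing beside 67.6% of all genes. Of 5 endothelial markers, *CDH5* and *VWF* were tested, and their summed level was 1.12 to 5.50 CPM in LV-NC and 84.6 to 89.9 CPM in LV-*ATF7*, nearly all from *CDH5*. The summed levels in the same order were 33.1 to 42.7 and 17.3 to 21.7 CPM for 2 of 8 fibroblast markers, 5.57 to 8.13 and 9.38 to 12.7 CPM for 3 of 8 macrophage markers, and 17.5 to 24.8 and 12.2 to 13.00 CPM for 2 of 7 melanocyte markers. Each of these sums joins genes that went in opposite directions. In log2 units *COL1A1* changed by -1.13 and *DCN* by 2.24, *MITF* by -1.21 and *PMEL* by 1.13 (edgeR). The macrophage markers *CD14*, *CSF1R* and *ITGAM* changed by 2.33, -2.18 and -0.41. *DCN* and *ITGAM* did not pass. The part of these marker differences in the lipid gene results was not tested, and more cells of a kind cannot be told apart from more RNA per cell. 

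Promoter sequences were read for the genes that could be matched, because SREBPs act through the sterol regulatory element (SRE) together with the factor NF-Y. Of the 36 genes, 32 had an entry, with 48 windows in all since some genes have several starts. Each window is the 250 bases before a RefSeq transcription start on GRCh38.p14. Windows were searched on both strands for the SRE letters TCACNCCA, the NF-Y letters CCAAT, the GC box GGGCGG bound by Sp1, and the cAMP response element (CRE) letters TGACGTCA, the element that ATF7 is known to bind. SRE and NF-Y letters can share their CCA, but they overlapped in 0 of these windows. The 6 windows below are shown because 3 hold the SRE letters, 2 belong to raised genes with 2 NF-Y matches each (for *DHCR7*, at one of its 2 starts), and 1 belongs to the gene with the largest rise and holds the CRE letters. Capitals mark SRE, NF-Y (CCAAT or its reverse complement ATTGG) and CRE matches.
SREBF2 promoter, plus strand, chr22:41832855-41833104: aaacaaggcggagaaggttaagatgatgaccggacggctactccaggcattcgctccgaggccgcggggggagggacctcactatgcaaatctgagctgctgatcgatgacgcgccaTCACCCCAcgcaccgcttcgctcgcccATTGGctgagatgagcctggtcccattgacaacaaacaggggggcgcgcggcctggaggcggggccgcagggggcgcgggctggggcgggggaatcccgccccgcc
MVK promoter, plus strand, chr12:109573544-109573793: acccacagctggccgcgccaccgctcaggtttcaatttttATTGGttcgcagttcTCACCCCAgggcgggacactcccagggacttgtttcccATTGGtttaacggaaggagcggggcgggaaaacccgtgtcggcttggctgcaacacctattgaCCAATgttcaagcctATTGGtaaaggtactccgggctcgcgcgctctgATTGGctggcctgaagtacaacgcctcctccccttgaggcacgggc
MSMO1 promoter, plus strand, chr4:165327419-165327668: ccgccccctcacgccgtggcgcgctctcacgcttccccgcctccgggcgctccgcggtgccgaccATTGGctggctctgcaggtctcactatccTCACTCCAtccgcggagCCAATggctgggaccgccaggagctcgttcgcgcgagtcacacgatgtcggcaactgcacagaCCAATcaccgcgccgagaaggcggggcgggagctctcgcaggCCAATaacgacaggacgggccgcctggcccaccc
SCD promoter, plus strand, chr10:100346983-100347232: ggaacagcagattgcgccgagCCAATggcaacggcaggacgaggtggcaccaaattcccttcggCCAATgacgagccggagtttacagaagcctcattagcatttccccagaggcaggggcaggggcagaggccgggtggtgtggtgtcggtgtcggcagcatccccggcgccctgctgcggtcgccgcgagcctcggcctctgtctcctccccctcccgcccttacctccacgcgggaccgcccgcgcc
DHCR7 promoter, minus strand, chr11:71448394-71448643: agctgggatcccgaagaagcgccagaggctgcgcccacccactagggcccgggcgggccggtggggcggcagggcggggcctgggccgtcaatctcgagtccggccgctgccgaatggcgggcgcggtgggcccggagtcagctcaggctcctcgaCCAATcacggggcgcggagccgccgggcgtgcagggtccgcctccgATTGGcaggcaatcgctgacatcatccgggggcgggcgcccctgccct
FADS1 promoter, minus strand, chr11:61817004-61817253: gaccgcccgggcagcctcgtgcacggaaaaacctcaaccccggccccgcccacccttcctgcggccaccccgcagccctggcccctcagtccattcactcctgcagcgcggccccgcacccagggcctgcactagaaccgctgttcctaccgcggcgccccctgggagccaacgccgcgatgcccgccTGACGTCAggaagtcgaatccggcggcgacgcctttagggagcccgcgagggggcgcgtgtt

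The SRE letters were in 4 of the 48 windows, or 8.33%, beside 3.20% of all 35116 promoter windows. Of the 4 genes, *SREBF2* and, at one of its 5 starts, *ACSL1* were higher in labeled LV-*ATF7*, whereas *MVK* and *MSMO1* did not pass the test. The NF-Y letters were in 27 of 48 windows, or 56.2%, beside 32.0% of all, and the GC box in 39, or 81.2%, beside 42.6%. The 35116 windows were not limited to genes expressed here, so these shares do not compare the lipid genes with other expressed genes. The windows of *ACLY* overlap and share their NF-Y matches, as do those of *SC5D*, so the same matches are counted again. Counted by gene, NF-Y letters stood before 11 of 18 genes that were higher, 5 of 6 that were lower and 7 of 8 that did not pass. The CRE letters were in 2 windows, those of *FADS1*, which rose, and of *ELOVL5*, which did not pass. In all windows 1.65% held them. *FASN*, *ACAT2*, *FDFT1* and *SQLE* have no window here.

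*SREBF1* (ENSG00000072310; chromosome 17, 17810399 to 17837002 on the minus strand, GRCh38) was measured at 178, 171 and 171 CPM in the LV-NC libraries and 934, 937 and 1063 CPM in the labeled LV-*ATF7* libraries. The LV-NC libraries lie close together, far below every labeled LV-*ATF7* library. It rose from 173 ± 3.99 to 978 ± 73.9 CPM (SD, n = 3; log2 fold change 2.50 ± 0.10 SE, adjusted p = 1.39e-06, edgeR). Counts are per gene, so the isoforms SREBP-1a and SREBP-1c cannot be told apart, and 6.92% of its exon bases lie opposite an exon of *RAI1*.

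*SREBF2* (chromosome 22, 41833079 to 41907308 on the plus strand) was measured at 214, 163 and 169.7 CPM in the LV-NC libraries and 447, 457 and 509.8 CPM in the labeled LV-*ATF7* libraries. The groups do not overlap, and LV-NC replicate 1 is the highest of its group. It rose from 182 ± 27.9 to 471 ± 33.9 CPM (SD, n = 3; log2 fold change 1.37 ± 0.13 SE, adjusted p = 4.84e-05, edgeR). The fold change was larger for *SREBF1*. The count ratio of *SREBF1* to *SREBF2* within a library, which no scaling enters, was 0.830, 1.05 and 1.01 in LV-NC and 2.09, 2.05 and 2.09 in labeled LV-*ATF7*, a difference in mean log2 ratio of 1.12 (two-sided exact permutation test, p = 0.10, which 3 libraries against 3 cannot go below). Per kilobase of exon, the mean level of *SREBF1* was 21.6 CPM and that of *SREBF2* 24.1 CPM in LV-NC, against 122 and 62.3 CPM in LV-*ATF7*.

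The genes that escort SREBPs or hold them back gave smaller differences. *SCAP*, the escort, was at 103, 106 and 111 CPM in the LV-NC libraries and 114, 120.2 and 135 CPM in the labeled LV-*ATF7* libraries. Its groups do not overlap, but the lowest labeled LV-*ATF7* library is close to the highest LV-NC library, and it did not pass (log2 fold change 0.20 ± 0.096 SE, adjusted p = 0.0944, edgeR). *INSIG2*, which retains SCAP, was at 34.6, 27.8 and 24.4 CPM in the LV-NC libraries and 21.1, 20.4 and 17.2 CPM in the labeled LV-*ATF7* libraries. It was lower in every labeled LV-*ATF7* library and fell by 0.56 in log2 units (SE 0.16, adjusted p = 0.0135, edgeR), but without LV-*ATF7* replicate 3 it did not pass (adjusted p = 0.0588).

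*INSIG1*, the second retention protein and itself a well-known SREBP target, was at 199, 88.3 and 92.4 CPM in the LV-NC libraries and 198, 207 and 195 CPM in the labeled LV-*ATF7* libraries. LV-NC replicate 1 stood at the level of the labeled LV-*ATF7* libraries, more than 2 times above replicates 2 and 3. With it the gene did not pass (log2 fold change 0.66 ± 0.29 SE, adjusted p = 0.0741), and without it the log2 fold change was 1.13 (adjusted p = 6.59e-13, edgeR). *STARD4*, which carries cholesterol between membranes, had the same shape, at 78.01, 37.2 and 36.8 CPM in the LV-NC libraries and 87.6, 81.9 and 71.9 CPM in the labeled LV-*ATF7* libraries. It did not pass with LV-NC replicate 1 (log2 fold change 0.67 ± 0.28 SE, adjusted p = 0.0653), and it did without it (log2 fold change 1.10, adjusted p = 1.42e-10, edgeR). Without that library 80.1% of all genes passed, against 67.6% with it. The count ratio of *INSIG1* to *INSIG2* was 5.75, 3.17 and 3.79 in LV-NC and 9.41, 10.1 and 11.3 in labeled LV-*ATF7* (two-sided exact permutation test, p = 0.10), with LV-NC replicate 1 the nearest to the other group. Over the 6 genes of the SREBP system, 2 were higher, 1 was lower and 3 did not pass, or 50% passing beside 67.6% of all genes, and the median log2 fold change was 0.66.

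**Figure D2:**
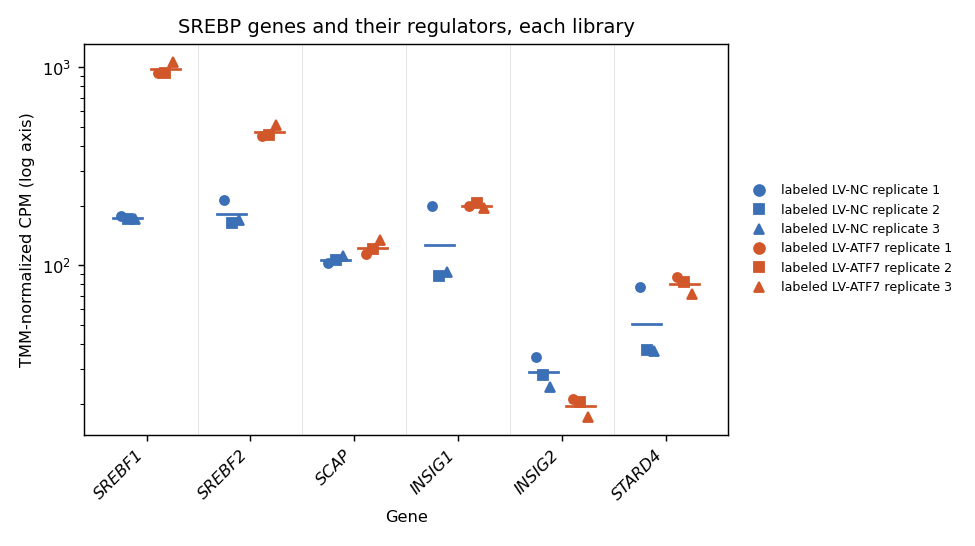
TMM-normalized CPM (log axis) of the 6 genes of the SREBP system in each library; points are libraries, symbols give the replicate number and lines are group means. *SREBF1* and *SREBF2* separate the groups widely, and for *INSIG1* and *STARD4* LV-NC replicate 1 (blue circle) lies among the labeled LV-*ATF7* libraries.

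Fatty acid synthesis starts from cytosolic acetyl-CoA, which ACLY makes from citrate. *ACLY* was at 229, 274 and 308 CPM in the LV-NC libraries and 610.0, 605 and 646 CPM in the labeled LV-*ATF7* libraries, with no overlap (log2 fold change 1.20 ± 0.12 SE, adjusted p = 7.75e-05, edgeR). ACACA turns acetyl-CoA into malonyl-CoA, the committed step. *ACACA* was at 141, 95.7 and 110.2 CPM in the LV-NC libraries and 271, 281 and 283 CPM in the labeled LV-*ATF7* libraries, again with no overlap (log2 fold change 1.27 ± 0.14 SE, adjusted p = 1.18e-04, edgeR). FASN then builds palmitate. *FASN* (ENSG00000169710; chromosome 17, 82078333 to 82098332 on the minus strand) was at 346, 278 and 295 CPM in the LV-NC libraries and 1857, 1897 and 2157 CPM in the labeled LV-*ATF7* libraries, and it rose from 306 ± 35.6 to 1970.4 ± 163 CPM (SD, n = 3; log2 fold change 2.69 ± 0.13 SE, adjusted p = 2.50e-06, edgeR).

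SCD puts the first double bond into the chain. *SCD* (chromosome 10, 100347124 to 100364834 on the plus strand) had the highest level per kilobase of exon of the 36 genes in both groups, 227 CPM in LV-NC and 1358 CPM in LV-*ATF7*. Its values were 1996, 797 and 858 CPM in the LV-NC libraries and 6964, 7528 and 7350.2 CPM in the labeled LV-*ATF7* libraries. LV-NC replicate 1 was 2.41 times the mean of replicates 2 and 3, and still more than 3 times below the lowest labeled LV-*ATF7* library. It was higher by 2.58 in log2 units (SE 0.35, adjusted p = 3.20e-04, edgeR), and without LV-NC replicate 1 it was 3.12.

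FADS1 and FADS2 are the desaturases that make polyunsaturated fatty acids, and their genes lie beside each other on chromosome 11. *FADS1* (ENSG00000149485; 61799625 to 61829318 on the minus strand) was at 38.2, 34.7 and 37.9 CPM in the LV-NC libraries and 315, 322 and 326 CPM in the labeled LV-*ATF7* libraries. This was the largest rise among the 36, with little spread in either group (log2 fold change 3.12 ± 0.090 SE, adjusted p = 7.90e-07, edgeR). *FADS2* was lower in level, at 4.71, 6.92 and 6.95 CPM in the LV-NC libraries and 29.9, 27.6 and 35.3 CPM in the labeled LV-*ATF7* libraries (log2 fold change 2.32 ± 0.19 SE, adjusted p = 2.33e-05, edgeR). The 2 genes share some exon bases with each other and with neighbors: 5.57% of the exon bases of *FADS1* and 4.89% of those of *FADS2* are shared with other genes, and the strandedness of the counting is not stated. GENCODE lists 1 pseudogene each named after *FADS2* and *SCD*. The count ratio of *FADS1* to *FADS2* was 8.10, 5.02 and 5.46 in LV-NC and 10.5, 11.6 and 9.23 in labeled LV-*ATF7* (two-sided exact permutation test, p = 0.10).

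Chain elongation was split by enzyme. *ELOVL6*, which extends palmitate to stearate, was at 9.05, 6.24 and 7.87 CPM in the LV-NC libraries and 25.5, 24.1 and 21.3 CPM in the labeled LV-*ATF7* libraries (log2 fold change 1.61 ± 0.17 SE, adjusted p = 8.28e-05, edgeR). *ELOVL1*, which extends saturated and monounsaturated very long chains, was at 102, 161 and 163 CPM in the LV-NC libraries and 64.1, 70.2 and 79.2 CPM in the labeled LV-*ATF7* libraries, and it fell by 0.996 in log2 units (SE 0.18, adjusted p = 0.00171, edgeR). *ELOVL5*, which extends polyunsaturated chains, was at 69.8, 77.4 and 85.3 CPM in the LV-NC libraries and 77.9, 79.6 and 70.3 CPM in the labeled LV-*ATF7* libraries. Its groups overlap, and it did not pass (log2 fold change -0.03 ± 0.11 SE, adjusted p = 0.823).

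Among the genes that activate or use fatty acids, the acyl-CoA synthetases went in opposite directions. *ACSL1* was at 88.1, 88.7 and 93.3 CPM in the LV-NC libraries and 140.1, 146 and 149 CPM in the labeled LV-*ATF7* libraries (log2 fold change 0.69 ± 0.082 SE, adjusted p = 1.68e-04, edgeR). *ACSL3*, found on the endoplasmic reticulum and on lipid droplets, was at 309, 269 and 257 CPM in the LV-NC libraries and 198, 191 and 164 CPM in the labeled LV-*ATF7* libraries, and it fell by 0.59 in log2 units (SE 0.11, adjusted p = 0.00201, edgeR). The count ratio of *ACSL1* to *ACSL3* was 0.285, 0.330 and 0.364 in LV-NC and 0.706, 0.768 and 0.904 in labeled LV-*ATF7* (two-sided exact permutation test, p = 0.10). *LPIN1*, a phosphatidate phosphatase of glycerolipid synthesis, was at 99.7, 85.4 and 91.6 CPM in the LV-NC libraries and 138, 134 and 129 CPM in the labeled LV-*ATF7* libraries (log2 fold change 0.53 ± 0.092 SE, adjusted p = 0.00119, edgeR). Of the 12 fatty acid genes, 9 were higher, 2 lower and 1 did not pass, or 91.7% passing beside 67.6% of all genes, and their median log2 fold change was 1.23.

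**Figure D3:**
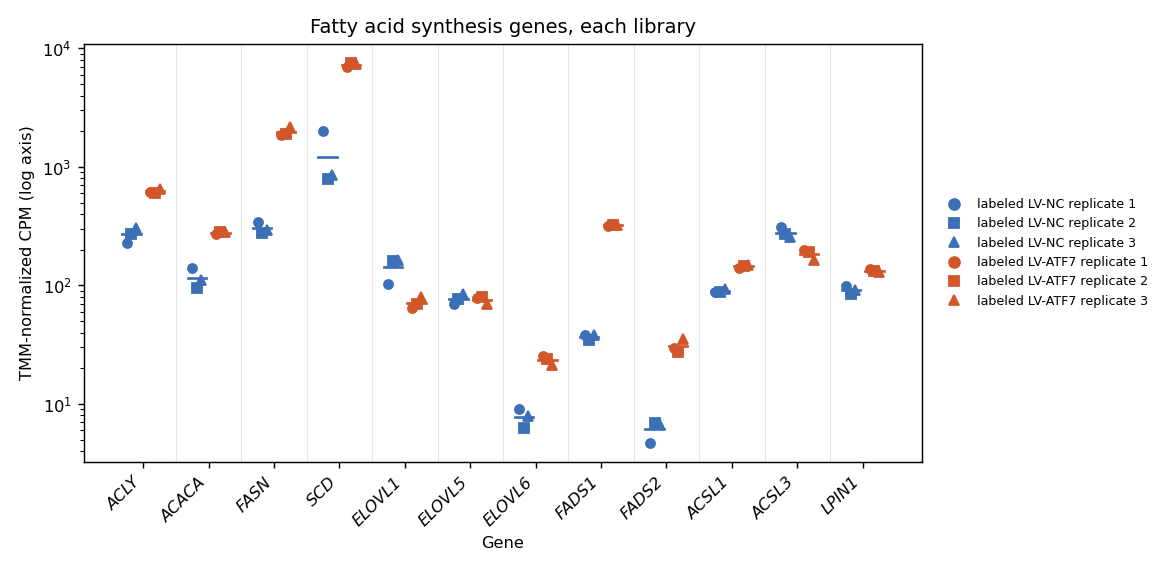
TMM-normalized CPM (log axis) of the 12 fatty acid genes in each library; points are libraries, symbols give the replicate number and lines are group means. *FASN*, *SCD*, *FADS1* and *FADS2* show the widest gaps, *ELOVL1* and *ACSL3* the opposite order, and *ELOVL5* overlapping groups.

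The 36 genes together held 0.438 to 0.617% of all counts in the LV-NC libraries and 1.37 to 1.42% in the labeled LV-*ATF7* libraries. Most of this came from the fatty acid genes, whose summed level was 2174 to 3432 CPM in LV-NC and 10692 to 11410.5 CPM in LV-*ATF7*. The largest part of that sum was *SCD*, with means of 1217 CPM in LV-NC and 7281 CPM in LV-*ATF7*. *FASN* came next, with 306 and 1970 CPM, and 2 of the 12 fatty acid genes were lower. The sum over the 18 cholesterol genes was 1377 to 1429 and 1786 to 1860.2 CPM. The count ratio of *FASN* to *HMGCS1* was 3.24, 2.02 and 2.09 in LV-NC and 13.5, 14.2 and 18.4 in labeled LV-*ATF7*. This pair joins one of the largest fatty acid rises to the cholesterol gene with the change nearest 0, so it describes those 2 genes and does not stand for the 2 pathways. All 5 ratios computed were chosen after the values were seen, and the exact permutation p of each, 0.10, stayed at 0.10 when adjusted over the 5 (Benjamini-Hochberg).

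Cholesterol synthesis begins with the mevalonate pathway, and neither of its first enzymes among the 36 passed the test. *ACAT2*, which joins acetyl-CoA units, was at 19.9, 32.03 and 27.7 CPM in the LV-NC libraries and 23.6, 26.4 and 28.4 CPM in the labeled LV-*ATF7* libraries, with groups that overlap (log2 fold change -0.02 ± 0.18 SE, adjusted p = 0.923, edgeR). Of its exon bases, 52.3% lie opposite exons of *TCP1* and *SOD2*. *HMGCS1*, which makes HMG-CoA and is a classical SREBP target, was at 107, 138 and 141 CPM in the LV-NC libraries and 138, 133 and 117 CPM in the labeled LV-*ATF7* libraries. Its groups also overlap, and it did not pass (log2 fold change 0.01 ± 0.13 SE, adjusted p = 0.948).

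Of the kinases and the decarboxylase that follow, *PMVK* and *MVD* were higher. *MVK* was at 66.4, 81.2 and 77.3 CPM in the LV-NC libraries and 82.6, 87.5 and 94.4 CPM in the labeled LV-*ATF7* libraries and did not pass (log2 fold change 0.23 ± 0.11 SE, adjusted p = 0.0874, edgeR), although the groups do not overlap. *PMVK* was at 8.78, 14.6 and 11.5 CPM in the LV-NC libraries and 27.6, 26.5 and 31.3 CPM in the labeled LV-*ATF7* libraries (log2 fold change 1.29 ± 0.19 SE, adjusted p = 5.08e-04, edgeR), and *MVD* at 35.5, 47.8 and 41.04 CPM in the LV-NC libraries and 72.7, 71.8 and 80.2 CPM in the labeled LV-*ATF7* libraries (log2 fold change 0.85 ± 0.13 SE, adjusted p = 5.17e-04, edgeR). The next enzyme, the isomerase *IDI1*, went the other way, at 117, 124 and 121 CPM in the LV-NC libraries and 89.03, 83.4 and 78.9 CPM in the labeled LV-*ATF7* libraries, and it fell by 0.53 in log2 units (SE 0.088, adjusted p = 9.72e-04, edgeR). Exons of other genes lie opposite 14.8% of the exon bases of *IDI1* and 15.0% of those of *HMGCS1*.

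*FDPS*, which makes farnesyl diphosphate, was at 16.2, 15.7 and 17.3 CPM in the LV-NC libraries and 29.8, 29.3 and 33.1 CPM in the labeled LV-*ATF7* libraries (log2 fold change 0.91 ± 0.11 SE, adjusted p = 2.05e-04, edgeR). GENCODE lists 8 pseudogenes named after it, and 18.6% of its exon bases lie opposite *RUSC1-AS1*, so its count is uncertain. *FDFT1*, which commits farnesyl diphosphate to squalene, was at 298, 255 and 251 CPM in the LV-NC libraries and 442, 440.2 and 469 CPM in the labeled LV-*ATF7* libraries (log2 fold change 0.75 ± 0.10 SE, adjusted p = 3.14e-04, edgeR). *SQLE*, the epoxidase known as a control point of the pathway, was at 129.7, 139 and 136 CPM in the LV-NC libraries and 139, 153 and 147 CPM in the labeled LV-*ATF7* libraries. It did not pass, and the gap between the groups is small (log2 fold change 0.12 ± 0.084 SE, adjusted p = 0.245). *LSS*, which closes the sterol rings, was at 67.9, 63.4 and 62.6 CPM in the LV-NC libraries and 107, 113 and 122 CPM in the labeled LV-*ATF7* libraries (log2 fold change 0.82 ± 0.092 SE, adjusted p = 1.25e-04, edgeR).

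After lanosterol, demethylation and reduction steps moved in both directions. *CYP51A1*, the sterol demethylase, was low, at 2.84, 1.57 and 2.32 CPM in the LV-NC libraries and 5.92, 5.76 and 5.47 CPM in the labeled LV-*ATF7* libraries (log2 fold change 1.35 ± 0.24 SE, adjusted p = 0.00125, edgeR). Of its exon bases, 83.2% also lie in exons of other genes, mostly on its own strand, and GENCODE lists 3 pseudogenes of it, so its level is uncertain. *TM7SF2*, a sterol reductase, was at 74.3, 135 and 126 CPM in the LV-NC libraries and 42.4, 39.8 and 44.5 CPM in the labeled LV-*ATF7* libraries, and it fell by 1.40 in log2 units (SE 0.21, adjusted p = 5.59e-04, edgeR), the largest fall among the 36. *LBR*, which catalyzes the same step and is named here outside the naming rule, was at 99.6 ± 15.3 and 98.5 ± 6.81 CPM (SD, n = 3; adjusted p = 0.92, edgeR).

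*MSMO1*, *NSDHL* and *HSD17B7* remove the methyl groups at carbon 4. *MSMO1* was at 83.4, 52.2 and 51.1 CPM in the LV-NC libraries and 53.7, 54.6 and 48.00 CPM in the labeled LV-*ATF7* libraries, where LV-NC replicate 1 alone is high, and it did not pass (log2 fold change -0.26 ± 0.19 SE, adjusted p = 0.266, edgeR). *NSDHL* was at 43.8, 53.1 and 51.00 CPM in the LV-NC libraries and 65.8, 62.95 and 63.5 CPM in the labeled LV-*ATF7* libraries (log2 fold change 0.38 ± 0.10 SE, adjusted p = 0.011, edgeR). Scaled by library size only, *NSDHL* did not pass (adjusted p = 0.072). *HSD17B7*, which has 2 listed pseudogenes, was at 11.4, 10.2 and 9.20 CPM in the LV-NC libraries and 21.8, 22.3 and 19.96 CPM in the labeled LV-*ATF7* libraries (log2 fold change 1.06 ± 0.13 SE, adjusted p = 2.28e-04, edgeR).

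In the last steps, *EBP*, the sterol isomerase, was at 16.7, 29.04 and 27.03 CPM in the LV-NC libraries and 28.6, 26.6 and 30.1 CPM in the labeled LV-*ATF7* libraries and did not pass (log2 fold change 0.23 ± 0.20 SE, adjusted p = 0.334, edgeR). *SC5D*, the desaturase before the last reduction, was at 134, 115 and 109 CPM in the LV-NC libraries and 66.4, 62.3 and 57.6 CPM in the labeled LV-*ATF7* libraries, and it fell by 0.94 in log2 units (SE 0.11, adjusted p = 1.54e-04, edgeR). *DHCR7*, which reduces 7-dehydrocholesterol to cholesterol (chromosome 11, 71428193 to 71452868 on the minus strand), was at 145, 122 and 128 CPM in the LV-NC libraries and 349.9, 349 and 389 CPM in the labeled LV-*ATF7* libraries. This was the largest rise among the cholesterol genes, from 131 ± 11.99 to 363 ± 23.01 CPM (SD, n = 3; log2 fold change 1.47 ± 0.10 SE, adjusted p = 1.23e-05, edgeR). *SC5D* and *DHCR7* act one after the other and moved in opposite directions, with no overlap between the groups for either. Of the 18 cholesterol genes, 9 were higher, 3 lower and 6 did not pass, or 66.7% passing beside 67.6% of all genes, and their median log2 fold change was 0.31.

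**Figure D4:**
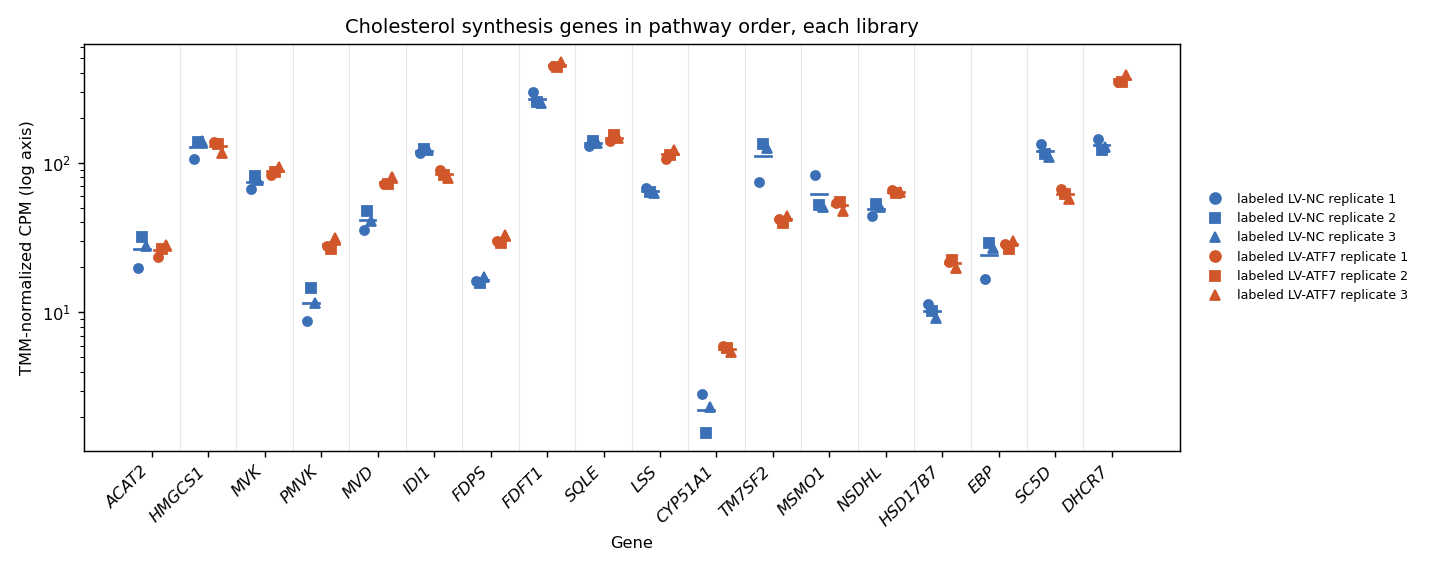
TMM-normalized CPM (log axis) of the 18 cholesterol synthesis genes in each library, in pathway order from left to right; points are libraries, symbols give the replicate number and lines are group means. *DHCR7*, *FDFT1*, *PMVK* and *CYP51A1* lie higher in labeled LV-*ATF7*, *TM7SF2*, *SC5D* and *IDI1* lower, and *HMGCS1*, *ACAT2*, *EBP* and *MSMO1* overlap.

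LV-NC replicate 1 was at least 1.5 times the mean of replicates 2 and 3 for 4 of the 36 genes, or 11.1%, beside 12.2% of all genes tested. These were *SCD* (2.41 times), *INSIG1* (2.20 times), *STARD4* (2.11 times) and *MSMO1* (1.61 times). *SREBF1* itself was 1.04 times and *FADS1* 1.05 times. For 3 of the 36 genes, replicate 1 was at or below 1/1.5 times the mean of the other 2, beside 12.1% of all genes tested. Those were *ELOVL1*, *EBP* and *TM7SF2*, at 0.632, 0.594 and 0.570 times. One library has no error of its own, so these differences were not tested.

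Further genes of sterol and fatty acid metabolism were counted by list. Of 15 further mevalonate and sterol genes tested, 5 were higher, 7 lower and 3 did not pass, or 80% passing beside 67.6% of all genes, with a median log2 fold change of -0.016 beside 0.000162 for all genes. *PGRMC1*, a heme-binding partner of sterol enzymes, and *ERG28*, a scaffold of the demethylation complex, fell by 1.01 and by 0.79 in log2 units (edgeR, adjusted p = 6.27e-04 and 0.00531).

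Of 20 genes of SREBP processing and sterol-regulated degradation, 1 was higher, 12 were lower and 7 did not pass, or 65% passing, with a median log2 fold change of -0.43. The gene that rose was *RNF145*, a ubiquitin ligase that acts on SCAP, from 39.1 ± 8.63 to 112 ± 5.66 CPM (SD, n = 3; log2 fold change 1.52 ± 0.16 SE, adjusted p = 7.94e-05, edgeR). *PAQR3*, a Golgi anchor for SCAP and SREBP, fell from 54.3 ± 2.15 to 12.3 ± 1.83 CPM (log2 fold change -2.14 ± 0.13 SE, adjusted p = 6.78e-06, edgeR). *SYVN1*, a ubiquitin ligase of the endoplasmic reticulum, fell from 294 ± 17.8 to 128 ± 8.08 CPM (log2 fold change -1.21 ± 0.094 SE, adjusted p = 1.94e-05, edgeR).

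Of 26 genes of the liver X receptors (LXRs), sterol efflux and sterol transport, 12 were higher, 11 lower and 3 did not pass (88.5% passing, median -0.099 in log2 units). *LRP1*, an endocytic lipoprotein receptor, rose from 47.9 ± 16.2 to 288 ± 14.3 CPM (SD, n = 3; log2 fold change 2.59 ± 0.22 SE, adjusted p = 3.10e-05, edgeR), and *ABCA2*, a lipid transporter, from 25.2 ± 9.54 to 136 ± 13.04 CPM (log2 fold change 2.43 ± 0.24 SE, adjusted p = 6.68e-05, edgeR). *OSBPL8* and *STARD3*, which move lipids at membrane contact sites, fell by 1.55 and by 1.13 in log2 units (edgeR, adjusted p = 2.07e-05 and 9.68e-05).

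Of 35 other genes of fatty acid and glycerolipid synthesis, 14 were higher, 11 lower and 10 did not pass (71.4% passing, median -0.019 in log2 units). *ACSL5*, an acyl-CoA synthetase, rose from 4.01 ± 1.15 to 32.8 ± 0.856 CPM (SD, n = 3; log2 fold change 3.03 ± 0.20 SE, adjusted p = 9.93e-06, edgeR), and *PNPLA3*, a lipid droplet protein known as an SREBP-1 target, from 1.64 ± 0.230 to 11.96 ± 1.72 CPM (log2 fold change 2.87 ± 0.20 SE, adjusted p = 1.12e-05, edgeR). *GPAT3*, which starts glycerolipid synthesis, fell from 8.83 ± 1.72 to 0.694 ± 0.209 CPM (log2 fold change -3.64 ± 0.28 SE, adjusted p = 1.65e-05, edgeR). *ELOVL4*, which makes the ultra-long chains of barrier ceramides, fell from 14.4 ± 2.09 to 1.24 ± 0.121 CPM (log2 fold change -3.53 ± 0.19 SE, adjusted p = 4.19e-06, edgeR).

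**Figure D5:**
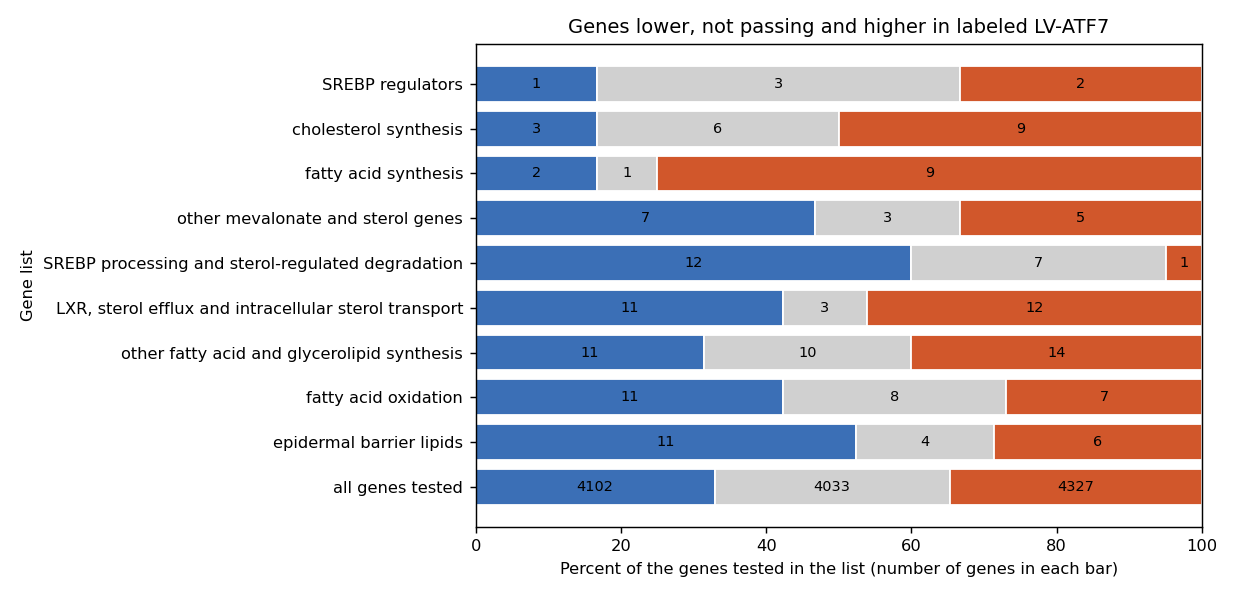
Share of the genes tested in each list that were lower (blue), did not pass (gray) or were higher (orange) in labeled LV-*ATF7* at an adjusted p under 0.05 (x axis, percent), with the number of genes printed in each bar. The fatty acid genes have 9 of 12 higher and the genes of SREBP processing 12 of 20 lower, beside 4327 higher and 4102 lower of all 12462 genes.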

How the data were processed

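For 6 HaCaT libraries, the authors selected mRNA on oligo(dT) beads, primed cDNA with random hexamers, sequenced on an Illumina NovaSeq platform and filtered reads on quality. The deposited table holds raw counts for each gene, which were analyzed, beside FPKM values, which were not used because the counts suit a count model. The submitters' processing notes name GRCh38. The aligner, counter, annotation and strandedness are not given in the sources used here. The table also holds fold changes and p-values of the authors' own comparison, which were not used. All count columns were matched to a sample, and no gene in the table has under 51 counts summed over the libraries.

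After TMM scaling, the groups were compared by the quasi-likelihood test (glmQLFit, glmQLFTest) in edgeR 4.0.16 under R 4.3.3, with Benjamini-Hochberg adjustment over the 12462 genes passing filterByExpr (37 failed) and a threshold of 0.05. All 36 members passed the filter. Standard errors are the log2 fold change over the square root of F. Levels are TMM-normalized CPM, and levels per kilobase use GENCODE 29 exons counted once. Positions are from GENCODE 29 (GRCh38), and promoter sequences from RefSeq (GRCh38.p14), with the 50 bases after each start left out. The model was tested on simulated counts. Alternatives used DESeq2 1.42.0 and limma 3.58.1. Figures and motif searches used Python 3.11.15. The members and lists were chosen with earlier results of these data known. Named genes are all members, and from each further list up to 2 called genes in each direction with the largest change and a mean of at least 50 counts. Some genes that this rule picks are not reported here. Levels of a few CPM rest on the fewest counts and carry the most counting error.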

Additional observations from a re-analysis of the deposited data

How the results depend on the processing

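Of the 36 genes, 24 kept their direction and their side of the threshold in all 14 alternatives, *FADS1*, *FASN*, *SCD* and *SREBF1* among them. The counts of all genes and of members called, and both counts for the cholesterol and for the fatty acid genes, stayed within 1.5 times throughout. Members called ran from 25 to 28 across the fits that each left out 1 library. The genes of the SREBP system called higher moved from 2 to 4 with DESeq2 and without LV-NC replicate 1 and to 5 with limma voom and sample quality weights, since *INSIG1* and *STARD4* passed there, as did *SCAP* with the weights, and ran from 2 to 4 with 1 library left out. Those called lower ran from 0 to 1 with 1 library left out (0 without LV-*ATF7* replicate 3) and went to 0 where a change of 1.5-fold was also asked for, since *INSIG2* changed less than that. Scaling by library size alone shifted the median over all genes by -0.16 (log2), *NSDHL* did not pass there, and 42.4% of its calls were higher, against 51.3%.

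Some members that did not pass changed sign. *HMGCS1* was at -0.00932 with DESeq2, -0.15 with library size only, -0.00933 with DESeq2 size factors, -0.00601 with at least 10 counts in every library and -0.063 with sample quality weights. Sample quality weights took *MSMO1* to 0.041 and *EBP* to -0.00834, and library size only took *SQLE* to -0.046. With 1 library left out the log2 fold change ran from -0.12 to 0.078 for *HMGCS1*, -0.21 to 0.10 for *ACAT2*, -0.00049 to 0.35 for *EBP* and -0.12 to 0.025 for *ELOVL5*. The cause was not tested.

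The labels' replicate numbers showed no pairing of libraries, as deviations from the group means correlated at 0.058, -0.021 and 0.065. In the fit with a replicate block, 8210 genes were called, members higher were 22, members lower 6, and genes of the SREBP system called higher were 4.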

Other observations

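Of 26 genes of fatty acid oxidation, which breaks down what the synthesis genes build, 7 were higher in the libraries labeled LV-*ATF7*, 11 lower and 8 did not pass, or 69.2% passing beside 67.6% of all genes, which is near that background (median log2 fold change -0.15). *PPARA*, a nuclear receptor that turns on oxidation genes, rose from 7.35 ± 2.06 to 35.3 ± 1.13 CPM (SD, n = 3; log2 fold change 2.26 ± 0.19 SE, adjusted p = 3.03e-05, edgeR), and its coactivator *PPARGC1A* from 5.75 ± 1.89 to 17.7 ± 3.11 CPM (log2 fold change 1.62 ± 0.25 SE, adjusted p = 6.99e-04, edgeR). *ETFDH*, which passes electrons from oxidation to the respiratory chain, fell from 41.4 ± 4.26 to 9.94 ± 0.228 CPM (log2 fold change -2.06 ± 0.12 SE, adjusted p = 5.77e-06, edgeR), and *SLC25A20*, the carnitine carrier of mitochondria, from 11.3 ± 0.907 to 3.62 ± 0.373 CPM (log2 fold change -1.64 ± 0.16 SE, adjusted p = 5.81e-05, edgeR).

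Of 21 genes for the lipids of the epidermal barrier, 6 were higher, 11 lower and 4 did not pass, or 81.0% passing (median log2 fold change -0.36). *STS*, the steroid sulfatase that cleaves cholesterol sulfate, rose from 12.2 ± 1.30 to 75.7 ± 6.51 CPM (SD, n = 3; log2 fold change 2.63 ± 0.12 SE, adjusted p = 2.20e-06, edgeR), and *CERS4*, a ceramide synthase, from 3.38 ± 1.85 to 16.4 ± 2.26 CPM (log2 fold change 2.27 ± 0.33 SE, adjusted p = 5.05e-04, edgeR). *SMPD1*, the acid sphingomyelinase, fell from 104 ± 13.2 to 4.96 ± 0.156 CPM (log2 fold change -4.38 ± 0.14 SE, adjusted p = 7.93e-07, edgeR), and *FA2H*, which adds the hydroxyl group of many skin ceramides, from 17.02 ± 5.83 to 1.96 ± 0.813 CPM (log2 fold change -3.12 ± 0.37 SE, adjusted p = 1.54e-04, edgeR).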
